A study of Homo sapiens with 6 samples.

Results

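The genes described here encode the proteasome, the cell's main machine for degrading ubiquitin-tagged proteins, together with its regulators and assembly chaperones. They were chosen by name, as the genes whose approved symbol begins with PSMA, PSMB, PSMC, PSMD, PSME, PSMF or PSMG followed by a number. The rule itself uses no measured value, but members and the lists of related genes were chosen with earlier results of these data known. The rule gave 50 of the 20263 genes in the table. Of these, 48 are subunits, regulators or chaperones, and the other 2, PSMC3IP and PSME3IP1, are named for interacting with PSMC3 and PSME3. Total RNA was sequenced from cells that the labels name LNCaP, an established androgen-responsive line of human prostate cancer. There were 3 libraries with an empty vector (EV1 to EV3). Another 3 had a vector to overexpress the long non-coding RNA LINC01518 (OE1 to OE3). The series' design text names another long non-coding RNA, MEG3, as the insert. Group names follow the sample labels, and neither RNA was analysed here. The vector's promoter, the time after transfection and the source of each library (separate cultures or 1 culture) are not stated in the labels. The p-values below therefore weigh differences only against the spread among 3 libraries, which may be technical.

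The core particle, or 20S proteasome, is a barrel of 4 stacked rings, the outer pair of alpha subunits (PSMA genes) and the inner pair of beta subunits (PSMB genes), of which PSMB5, PSMB6 and PSMB7 carry the proteolytic sites. A 19S regulator caps the barrel. Its base (PSMC ATPases with PSMD1, PSMD2 and PSMD4) unfolds the substrate, and its lid holds the deubiquitinase PSMD14. Interferon gamma replaces the catalytic subunits by PSMB8, PSMB9 and PSMB10 to form the immunoproteasome, which cuts peptides for presentation on MHC class I, and PSME1 and PSME2 form the PA28 activator that works with it. When proteasomes are inhibited, the transcription factor NFE2L1, after processing by NGLY1 and the protease DDI2, raises the subunit genes together.

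Total counts per library lay between 38161544 and 42553688, so that 3 counts, the limit that a count of 0 allows, stood for 0.0703 to 0.0794 CPM, the count scaled to the size of the library. That limit covers counting error only. Across the 13543 genes tested with edgeR's quasi-likelihood test, 5.6% passed a Benjamini-Hochberg threshold of 0.05, of which 3.57% of genes were higher in the overexpression libraries and 2.03% lower. Of 9 markers of LNCaP and luminal prostate cells, KLK3, KLK2, TMPRSS2 and FOLH1 had 0 counts in all 6 libraries. HOXB13, a transcription factor of the prostate lineage, had 6.90 and 8.27 CPM with empty vector and overexpression. The luminal keratins KRT18, at 995 and 1078 CPM, and KRT8 were high, and KRT8 rose from 1363 to 1670 CPM (adjusted p = 0.0187 by edgeR). The defining secreted and surface markers of LNCaP were thus at 0 in both groups, values that do not match the label. LNCaP is used here only as the name the labels give. The part of cell identity in the results was not tested. Among immune cell markers, PTPRC, CD3E and LYZ had 0 counts in all 6 libraries, while CD14 had 9 to 29 and CD74 had 22 to 36.

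None of the 48 proteasome genes tested was called as changed with overexpression. In simulated counts the fit recovered only 6% of genes changed 1.25-fold and 56% of those changed 1.5-fold. The absence of a call therefore says little about changes as small as 1.25-fold. With edgeR, 0 were called higher, where 3.57% of all genes tested were, and 0 were called lower, where 2.03% were. At an unadjusted p under 0.05, edgeR gave 2 of the 48, PSMC3 and PSMA6, against 23.6% of all genes tested. With DESeq2 0 passed after adjustment, against 9.72% of all genes, and 1 had an unadjusted p under 0.05, against 21.2%. With limma-voom 0 passed after adjustment, against 5.52%, and 2 had an unadjusted p under 0.05, against 23.8%. With limma-trend on log2(TPM + 1) 0 passed, against 2.29%, and 3 had an unadjusted p under 0.05, against 22.2%. The other 2 of the 50 genes were too low to be tested: PSMA8, the alpha subunit of germ cells, had 0 counts in every library, and PSMB11, the thymic beta subunit, had 0 to 2. In bulk RNA, fewer cells carrying a transcript and less transcript per cell cannot be told apart.

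The differences were small for most of the genes. A log2 fold change is given throughout as overexpression minus empty vector. Over the 46 subunit, regulator and chaperone genes that passed the filter on low counts, its median was -0.003, with 21 positive and 25 negative values. Over all genes tested it was -0.004. On log2(TPM + 1) 17 of the 46 were positive and the median was -0.022, against -0.043 over all genes. The median size of the log2 fold change, regardless of sign, was 0.068 for the proteasome genes, 0.129 for all genes and 0.106 for the 8394 genes with a mean between 14.5 and 298 CPM, the range spanned by the proteasome genes. For 44 of the 46 the 95% interval lay within a 1.5-fold change in either direction, which was so for 90% of the genes in that CPM range. The 2 exceptions were PSMA2 and PSME3. For 37 of the 46 (80.4%) the interval lay within 1.25-fold, against 60.1% of the genes in the same CPM range. The intervals themselves were no narrower, with a median half-width of 0.17 on the log2 scale against 0.166 in that CPM range. The groups did not overlap for 4 genes, PSMC3, PSMA6, PSMD5 and PSMD7, or 8.7%, where 31.4% of all genes tested had groups that did not overlap.

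**Figure D1:**
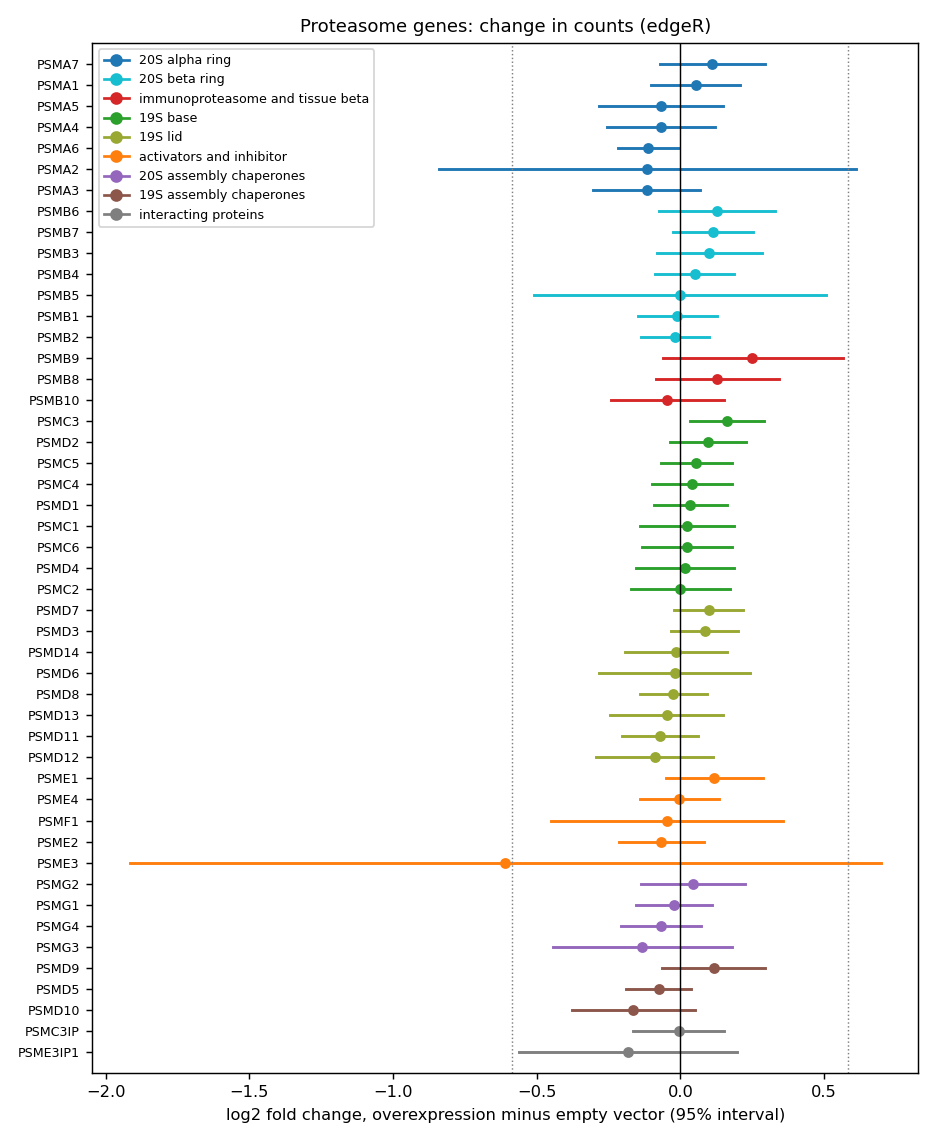
Log2 fold change (x axis, overexpression minus empty vector) of each of the 48 proteasome genes tested, coloured by class, with 95% intervals from edgeR as bars. The values run from -0.61 for PSME3 to 0.25 for PSMB9, and the intervals of PSME3 and PSMA2 are the widest.

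The alpha ring forms the gate of the core particle. Its 7 tested genes had a median log2 fold change of -0.069, with a range of -0.12 (PSMA3) to 0.11 (PSMA7), and 0 were called with edgeR. PSMA6 (ENSG00000100902, chromosome 14, 35278633 to 35317493, GRCh38) had 80.9, 80.1 and 78.9 CPM in the empty vector libraries and 72.4, 74.0 and 75.5 CPM in the overexpression libraries. The groups did not overlap and the spread within each was small. The means were 80.0 ± 0.996 and 74.0 ± 1.55 CPM (SD, n = 3 each), a log2 fold change of -0.11 (standard error 0.046, adjusted p = 0.186 by edgeR). A gene model on the same strand, AL121594.1, starts upstream and runs to the 3′ end of PSMA6 (chromosome 14, 35122549 to 35317474), and had 320, 316 and 302 counts with empty vector and 500, 265 and 394 with overexpression. With its counts added to those of PSMA6, an alternative chosen after seeing the data, the log2 fold change was -0.067 (adjusted p = 0.43 by edgeR).

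PSMA2 (ENSG00000106588, chromosome 7, 42916857 to 42932223, GRCh38) was low in a single library. Its counts were 2565, 3167 and 3129 with empty vector and 3361, 1641 and 2994 with overexpression. In OE2 the gene thus stood well under the other 5 libraries, and its log2 fold change of -0.12 had an interval from -0.84 to 0.61. The same library was set apart by a protein-coding gene model on the same strand, AC010132.3 (chromosome 7, 42909273 to 42932174), which begins within PSMA2 and continues beyond its 3′ end. AC010132.3 had 10, 2 and 7 counts with empty vector and 4, 1204 and 7 with overexpression, so that 1204 of its counts fell in OE2. Summed over both models, the counts were 2575, 3169 and 3136 with empty vector and 3365, 2845 and 3001 with overexpression. On the summed counts, an alternative added after seeing the data, the log2 fold change was 0.088 with an interval from -0.13 to 0.31 (adjusted p = 0.612 by edgeR). OE2 then stood at 72.3 CPM beside 80.1 CPM in OE1 and 79.4 CPM in OE3.

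The constitutive beta ring, with the highest levels of any class (median 260 TPM, a scale of transcripts per gene length), had 7 genes tested and 0 called. Its median log2 fold change was 0.05, with a range of -0.018 (PSMB2) to 0.13 (PSMB6). PSMB7, which carries the trypsin-like site (chromosome 9, 124353466 to 124415444), had 199.3, 201.8 and 225.7 CPM with empty vector and 230.5, 216.1 and 231.9 CPM with overexpression. The groups overlapped through EV3, and the log2 fold change was 0.11 (standard error 0.060, adjusted p = 0.293 by edgeR). PSMB6, which carries the caspase-like site, had 58.1, 67.1 and 73.4 CPM against 75.9, 68.5 and 72.7 CPM, a log2 fold change of 0.13 (standard error 0.088, adjusted p = 0.419 by edgeR). PSMB5, which carries the chymotrypsin-like site and is the target of bortezomib, had 104.8, 93.4 and 126.3 CPM against 80.7, 120.2 and 123.2 CPM. Its group means were nearly equal, at 108.1 ± 16.7 and 108.0 ± 23.7 CPM, but OE1 and EV2 were low and the interval of its log2 fold change ran from -0.51 to 0.51.

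**Figure D2:**
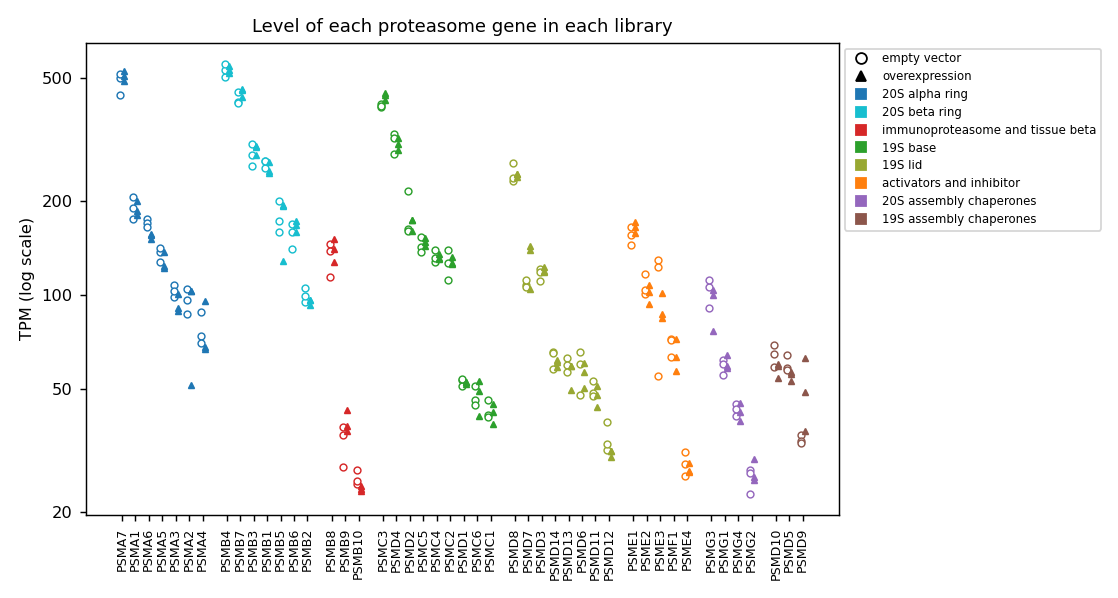
Deposited TPM (y axis, log scale) of the 46 proteasome genes with measurable counts in each of the 6 libraries, open circles for empty vector and triangles for overexpression, ordered by class and level. PSMB4 and PSMA7 are the highest and PSMB10 and PSMG2 among the lowest, and the 2 symbols of a gene lie close together next to the differences between genes.

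The immunoproteasome genes were expressed in both groups, and the labels name no interferon treatment. PSMB8 had a mean of 132.8 ± 16.6 TPM with empty vector and 139.9 ± 11.7 TPM with overexpression. PSMB9 had 33.7 ± 5.09 and 39.1 ± 3.27 TPM, and PSMB10 had 25.8 ± 1.43 and 23.9 ± 0.441 TPM (SD, n = 3 each). PSMB8 thus lay well above PSMB9 and PSMB10 in every library, and PSMB9 lay above PSMB10 in every library.

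None of the 3 was called. PSMB8 (ENSG00000204264, chromosome 6, 32840717 to 32844703) had 72.3, 89.9 and 87.7 CPM with empty vector and 97.7, 85.1 and 90.3 CPM with overexpression, a log2 fold change of 0.13 (standard error 0.092, adjusted p = 0.446 by edgeR). PSMB9 (ENSG00000240065, chromosome 6, 32844136 to 32859585), whose annotated span includes TAP1 on the other strand, had 10.7, 13.9 and 15.1 CPM against 15.4, 14.6 and 17.3 CPM. Its log2 fold change of 0.25 (standard error 0.136, 95% interval -0.062 to 0.57, adjusted p = 0.308 by edgeR) was the largest positive value of all proteasome genes, and EV1 was the low library. PSMB10 (ENSG00000205220, chromosome 16, 67934502 to 67937087) had 14.3, 15.3 and 16.9 CPM against 14.9, 14.8 and 15.4 CPM, a log2 fold change of -0.045 (standard error 0.086, adjusted p = 0.793 by edgeR).

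Each immunoproteasome subunit takes the place of a constitutive one, so their transcripts were compared as a ratio. A ratio of genes within a library does not depend on scaling between libraries. PSMB10 stood at 5.88%, 6.12% and 6.08% of PSMB7 in TPM with empty vector and at 5.17%, 5.51% and 5.32% with overexpression. All 3 overexpression values lay under all 3 empty vector values, a difference in log2 ratio of -0.18. The two-sided exact permutation test gave p = 0.1, the smallest value that 3 against 3 libraries allow, and 0.3 after Benjamini-Hochberg adjustment over the 3 ratios. PSMB9 stood at 19.9%, 22.3% and 22.2% of PSMB6 with empty vector and at 21.9%, 22.9% and 25.5% with overexpression (difference in log2 ratio 0.13, exact permutation p = 0.3, adjusted 0.45). PSMB8 stood at 66.2%, 91.8% and 69.1% of PSMB5 against 117%, 66.2% and 72.3%, where OE1 had both the lowest PSMB5 and the highest PSMB8 (difference 0.14, exact permutation p = 0.6, adjusted 0.6). Without OE1 that difference was -0.11. The design cannot reach p under 0.05 for these ratios. PSMB8 and PSMB9 overlap each other on opposite strands, and PSMB10 overlaps AC040162.1 on its own strand (25 to 58 counts), so reads there may be divided between models. In all, 25 members share exon sequence with another gene model.

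PSMB11, the beta subunit of the thymic epithelium, had 2, 2 and 0 counts with empty vector and 0, 0 and 1 with overexpression, at or under the limit that a count of 0 allows. FOXN1, a transcription factor of the thymic epithelium on the same marker list, was measured at 8.24 ± 0.69 CPM with empty vector and rose to 16.7 ± 1.84 CPM with overexpression (log2 fold change 1.02, standard error 0.110, adjusted p = 0.00476 by edgeR). Of the germ cell markers, PSMA8 and DDX4 had 0 counts in all libraries and SYCP3 had 0 to 4.

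The base of the 19S regulator had 9 genes tested, 8 with a positive and 1 with a negative log2 fold change, and 0 called with edgeR. The median was 0.035 and the range -0.001 (PSMC2) to 0.16 (PSMC3). The split by sign depended on the unit and scaling: with library size as the only scaling 5 of the 9 were positive, and on log2(TPM + 1) 4 were, with a median of -0.008. PSMC3, an ATPase of the unfolding ring (ENSG00000165916, chromosome 11, 47418769 to 47426473, GRCh38), had 261.5, 289.0 and 293.1 CPM with empty vector and 323.9, 303.4 and 316.3 CPM with overexpression. All 3 overexpression values lay above all 3 empty vector values. The means were 281.2 ± 17.2 and 314.5 ± 10.4 CPM, a log2 fold change of 0.16 (standard error 0.056, 95% interval 0.033 to 0.29), and its p was the smallest of any proteasome gene without passing adjustment (adjusted p = 0.133 by edgeR). In the deposited TPM the same gene had 403.0, 411.2 and 405.8 with empty vector and 445.4, 425.0 and 440.6 with overexpression. PSMD2, a scaffold of the base that binds ubiquitin shuttles, had means of 265.9 ± 16.5 and 284.4 ± 11.2 CPM (log2 fold change 0.097), and PSMD4, a ubiquitin receptor, had 207.4 ± 19.6 and 209.7 ± 10.3 CPM (log2 fold change 0.016).

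The lid had 8 genes tested, 2 positive and 6 negative, and 0 called. The median log2 fold change was -0.022 and the range -0.09 (PSMD12) to 0.098 (PSMD7). PSMD7, which pairs with the deubiquitinase PSMD14, had 77.6, 77.9 and 84.4 CPM with empty vector and 85.1, 84.9 and 86.9 CPM with overexpression. The groups were apart by less than 1 CPM, with a log2 fold change of 0.098 (standard error 0.052, adjusted p = 0.295 by edgeR). PSMD12, a structural lid subunit, had 82.2, 64.3 and 71.2 CPM against 70.3, 68.4 and 65.8 CPM, with EV1 high and the log2 fold change at -0.09 (standard error 0.088, adjusted p = 0.579 by edgeR). PSMD14 itself had 61.2 ± 5.73 and 60.5 ± 2.33 CPM, a log2 fold change of -0.016 with an interval from -0.19 to 0.16.

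Base and lid genes differed in level. Per length, the base had a median of 133 TPM (42.1 to 422) and the lid 59.7 TPM (32.8 to 244), although the subunits of both stand in the complex in equal number. PSMD8 was the highest lid gene and PSMC3 the highest base gene. PSMC1, PSMC6 and PSMD1 were the lowest of the base, at 42.6 ± 2.86, 47.2 ± 3.43 and 52.7 ± 1.55 TPM with empty vector.

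Among the activators, PSME1 had 70.7, 76.7 and 84.6 CPM with empty vector and 88.1, 80.9 and 82.7 CPM with overexpression (log2 fold change 0.12, standard error 0.073, adjusted p = 0.369 by edgeR). Its partner PSME2 had 58.3, 62.7 and 67.1 CPM against 61.5, 59.2 and 58.8 CPM (log2 fold change -0.067, standard error 0.064, adjusted p = 0.573 by edgeR). The PA28 partners thus had values of opposite sign, each within the spread between libraries. PSME4, which encodes the activator PA200, had 101.8 ± 6.12 and 101.5 ± 4.20 CPM, a log2 fold change of -0.004 with an interval from -0.14 to 0.13. PSMF1, an inhibitor of the core particle, had 95.6, 72.8 and 79.5 CPM against 74.3, 97.1 and 68.5 CPM, with EV1 and OE2 high (log2 fold change -0.047, interval -0.45 to 0.36).

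PSME3, which forms the nuclear activator PA28 gamma (ENSG00000131467, chromosome 17, 42824385 to 42843758, GRCh38), had the widest spread of all the proteasome genes. It had 67.1, 148.1 and 150.3 CPM with empty vector and 53.7, 123.7 and 62.3 CPM with overexpression. Both groups held low and high libraries: EV1, OE1 and OE3 lay between 53.7 and 67.1 CPM, and EV2, EV3 and OE2 between 123.7 and 150.3 CPM. The log2 fold change of -0.61 (standard error 0.494, 95% interval -1.92 to 0.70, adjusted p = 0.526 by edgeR) had an interval that reached far to both sides of 0, and the value moved between -0.39 and -1.07 as single libraries were left out. The SD within groups was 0.654 on the log2 scale, at the 96.4th percentile of all genes tested. In the deposited TPM the gene had 54.7, 129.2 and 122.8 with empty vector and 84.5, 101.3 and 87.1 with overexpression, a log2 fold change of -0.074. EV1 was the low library there too, whereas OE1 and OE3 were not. BECN1, which overlaps PSME3 on the opposite strand, had 1448 to 1899 counts per library.

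**Figure D3:**
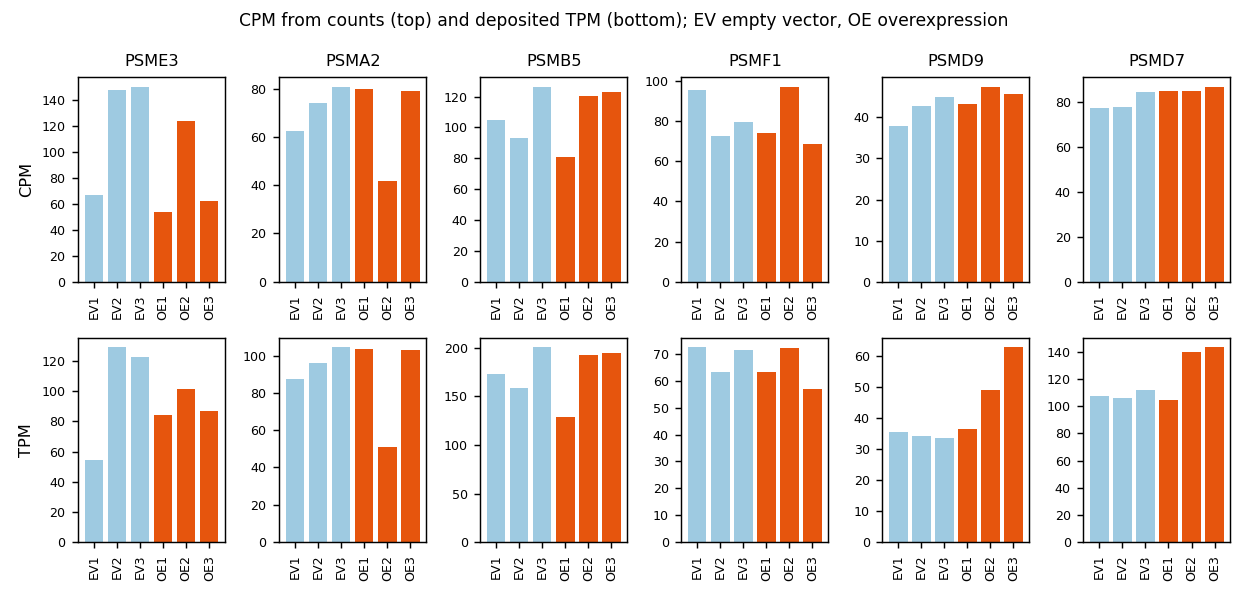
Bars give the CPM computed from the counts (top row) and the deposited TPM (bottom row) of PSME3, PSMA2, PSMB5, PSMF1, PSMD9 and PSMD7 in each library, from EV1 to OE3, each panel starting at 0. PSMA2 is low in OE2 in both units, PSME3 has 3 low libraries in CPM and 1 in TPM, and PSMD9 and PSMD7 are high in OE2 and OE3 in TPM only.

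The chaperones of 20S assembly, PSMG1 to PSMG4, had 4 genes tested, 0 called and a median log2 fold change of -0.044. PSMG1 had 45.6 ± 1.73 and 44.9 ± 0.589 CPM (log2 fold change -0.022). Its partner PSMG2 had 18.2 ± 1.35 and 18.8 ± 0.219 CPM (log2 fold change 0.045). PSMG3 had 47.7, 55.9 and 58.1 CPM with empty vector and 54.7, 52.6 and 40.1 CPM with overexpression, with OE3 the low library (log2 fold change -0.13, standard error 0.132, adjusted p = 0.587 by edgeR). PSMG4, its partner, had 31.2 ± 0.597 and 29.8 ± 0.911 CPM (log2 fold change -0.067, standard error 0.060, adjusted p = 0.541 by edgeR).

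The 3 chaperones of 19S base assembly with a PSMD symbol had a median log2 fold change of -0.076 and 0 called. PSMD5 had 104.2, 98.9 and 98.6 CPM with empty vector and 96.7, 97.4 and 92.2 CPM with overexpression, groups that did not overlap but lay close together (log2 fold change -0.076, standard error 0.049, adjusted p = 0.388 by edgeR). PSMD10, the oncoprotein gankyrin, had 39.9, 37.7 and 43.5 CPM against 38.7, 37.6 and 31.8 CPM (log2 fold change -0.16, standard error 0.093, adjusted p = 0.329 by edgeR). PSMD9 had 38, 42.7 and 45.0 CPM against 43.2, 47.4 and 45.6 CPM (log2 fold change 0.12, standard error 0.078, adjusted p = 0.41 by edgeR). In TPM, PSMD9 had 35.5, 34.0 and 33.3 with empty vector and 36.5, 48.9 and 62.6 with overexpression, a log2 fold change of 0.48 that did not pass adjustment either (limma adjusted p = 0.19). Of the other 2 members of the family by name, PSMC3IP, a recombination cofactor, had a log2 fold change of -0.006 and PSME3IP1 of -0.18, with an interval from -0.56 to 0.20.

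The counts and the deposited TPM went different ways for a few members. The ratio of counts to TPM, set relative to its median for the gene, spanned more than 1.3-fold over the 6 libraries for 5 of the 46 genes (10.9%), against 10.3% of 10545 genes with enough counts. Those were PSME3 (2.06-fold), PSMD9 (1.86-fold), PSMA4 (1.57-fold), PSMD7 (1.33-fold) and PSMD2 (1.31-fold). For PSME3 the relative ratio was 1.07, 0.99 and 1.01 with empty vector and 0.52, 1.02 and 0.59 with overexpression, so counts per unit of TPM were low in OE1 and OE3. For PSMD9 it was 0.98, 1.13 and 1.17 against 1.02, 0.85 and 0.63. The median span was 1.06-fold, both for the proteasome genes and for all genes with enough counts.

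Summed over all 48 genes, proteasome transcripts made up 6115, 6439 and 6686 TPM with empty vector and 6511, 6319 and 6492 TPM with overexpression. The means were 6413 ± 286 and 6441 ± 106 TPM (SD, n = 3 each), and the overexpression libraries lay inside the range of the empty vector libraries. The sums of the classes differed between groups by less than the SD of the empty vector libraries for the alpha ring (1257 ± 58.6 and 1235 ± 70.9 TPM), the beta ring (1935 ± 100 and 1962 ± 22.3 TPM) and the base (1443 ± 68.2 and 1463 ± 24.4 TPM). The immunoproteasome and thymic genes summed to 192.3 ± 22.2 and 202.8 ± 13.0 TPM.

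Within the groups the proteasome genes leaned together by library. EV1 was the lowest of its group for 29 of the 46 genes and EV3 the highest for 29. In the other group OE2 was the lowest for 26 and OE1 the highest for 25. Over all genes tested, EV1 was the lowest of its group for 35.5%, EV3 the highest for 33.4%, OE2 the lowest for 33.4% and OE1 the highest for 33.6%. The median deviation of the proteasome genes from their group mean was -0.075 in EV1 and 0.08 in EV3 on the log2 scale, against 0.005 and -0.001 over all genes. These shifts within the empty vector group are medians of signed values. Between the groups the signed median was -0.003, and the median size regardless of sign, an unlike measure, was 0.068. The difference between EV1 and EV3 also went with exonic length: Spearman's rho was 0.48 over the 46 genes and 0.28 over 13529 genes, a description across genes that share the same libraries. The part of transcript length or RNA quality in it was not tested. Without EV3, edgeR called 0 of the 48 genes, against 3.35% of all genes tested, and the smallest adjusted p was 0.103, for PSMB7. In that fit 9 of the 48 had an unadjusted p under 0.05, against 23.3% of all genes tested.

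**Figure D4:**
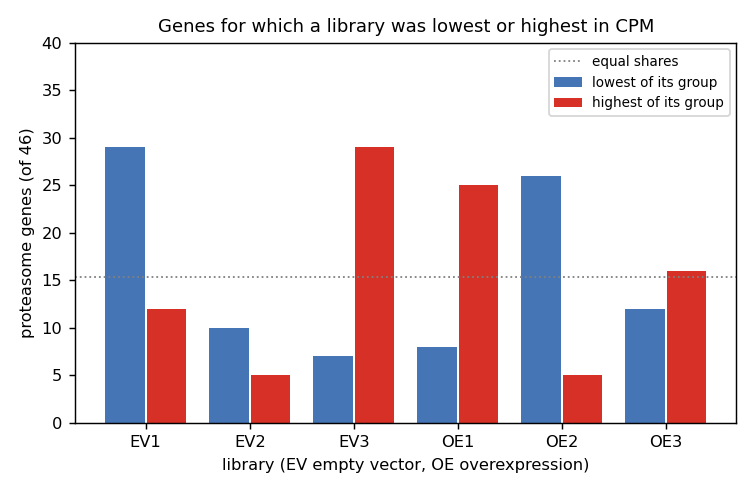
Number of the 46 proteasome genes (y axis) for which each library was the lowest (blue) or the highest (red) of its own group of 3 in CPM. EV1 is the lowest for 29 and EV3 the highest for 29, and the dotted line marks equal shares.

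A further 53 genes without a PSM symbol but working with the proteasome were all tested. With edgeR 0 were called higher and 2 lower, against 3.57% and 2.03% of all genes tested, and 7 had an unadjusted p under 0.05, against 23.6%. In either direction 2 of the 53 were called, a share no larger than the 5.6% over all genes tested. Both called genes belong to the list on control of NFE2L1, the factor that raises proteasome genes when proteasomes fail. DDI2, the protease that activates NFE2L1 (ENSG00000197312, chromosome 1, 15617500 to 15669044, GRCh38), had 114.1, 107.1 and 96.2 CPM with empty vector and 79.6, 89.4 and 76.7 CPM with overexpression. It fell from 105.8 ± 9.04 to 81.9 ± 6.67 CPM (log2 fold change -0.37, standard error 0.081, adjusted p = 0.0418 by edgeR). SYVN1, the ubiquitin ligase of the endoplasmic reticulum that marks NFE2L1 for degradation (ENSG00000162298, chromosome 11, 65121780 to 65134533), had 96.6, 96.5 and 96.3 CPM against 79.0, 71.2 and 79.9 CPM. It fell from 96.5 ± 0.169 to 76.7 ± 4.82 CPM (log2 fold change -0.33, standard error 0.057, adjusted p = 0.0198 by edgeR).

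The groups did not overlap for either gene, but both calls were close to the threshold. Leaving out 1 library at a time kept the log2 fold change between -0.44 and -0.31 for DDI2 and between -0.36 and -0.28 for SYVN1. In those fits the adjusted p of DDI2 lay between 0.0359 and 0.131 and passed only without EV3, and that of SYVN1 lay between 0.0472 and 0.0647 and passed only without EV1 or EV3. On log2(TPM + 1) neither passed, with adjusted p of 0.127 and 0.065 by limma. DDI2 shares part of its span on the same strand with RSC1A1 (5 to 12 counts) and SYVN1 with FAU (6161 to 8214 counts), and how reads were divided between them is not stated in the labels or processing notes.

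Of the 11 genes of that list, DDI2 and SYVN1 included, 9 had negative values and the median log2 fold change was -0.134. Over all genes tested, 6879 of 13543 were negative and the median was -0.004. Apart from DDI2 and SYVN1, none of the list was called. The list mixes opposite roles: DDI2 activates NFE2L1, whereas SYVN1 marks it for degradation. A shared sign therefore gives no single direction for NFE2L1, whose activity was not measured. NFE2L1 itself had 144.7, 169.8 and 129.5 CPM with empty vector and 116.9, 127.7 and 132.2 CPM with overexpression, a log2 fold change of -0.24 (standard error 0.101, adjusted p = 0.214 by edgeR). NGLY1, which removes its sugar chains, had 35.8 ± 1.79 and 33.3 ± 1.44 CPM (log2 fold change -0.11, adjusted p = 0.379 by edgeR). The small Maf partner MAFG had 73.3, 96.6 and 100.6 CPM against 100.4, 24.5 and 77.5 CPM, with OE2 far under the rest and an interval from -1.88 to 1.04.

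Of 10 subunits and partners without a PSM symbol 0 were called. POMP, the chaperone that completes the core particle, had 56.5, 63.8 and 67.1 CPM against 58.4, 53.3 and 53.9 CPM (log2 fold change -0.18, standard error 0.077, adjusted p = 0.209 by edgeR). The ubiquitin receptor ADRM1 (log2 fold change -0.026), the lid peptide SEM1 (-0.08) and the deubiquitinases USP14 (-0.021) and UCHL5 (-0.14) all had adjusted p of 0.281 or more. TXNL1, a thioredoxin-like protein bound to the 19S regulator, had opposite signs in counts and TPM, with a log2 fold change of -0.29 from counts (adjusted p = 0.0989 by edgeR) and 0.74 from TPM (limma adjusted p = 0.248). None of the 6 ubiquitin and ubiquitin-activating genes and none of the 10 shuttle and segregase genes, VCP among them, was called.

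Antigen processing, which uses the peptides of the immunoproteasome, had 16 genes tested, 0 called with edgeR, 8 positive and 8 negative values and a median log2 fold change of 0.0. The 2 subunits of the peptide transporter had values of opposite sign. TAP1, which shares its promoter region with PSMB9, had 80.5, 87.7 and 92.3 CPM with empty vector and 98.3, 93.6 and 93.3 CPM with overexpression (log2 fold change 0.13, standard error 0.061, adjusted p = 0.242 by edgeR). TAP2 had 113.2, 114.2 and 106.3 CPM against 96.6, 91.8 and 99.4 CPM (log2 fold change -0.21, standard error 0.053, adjusted p = 0.0581 by edgeR). It passed with DESeq2 (adjusted p = 0.0205), on log2(TPM + 1) (limma adjusted p = 0.0417) and in edgeR without TMM scaling (adjusted p = 0.0441). It did not pass with limma-voom (adjusted p = 0.0614) or on log2(TPM + 1) without a filter (limma adjusted p = 0.0515). With the replicate number as a block the adjusted p was 0.128. In the edgeR fits with 1 library left out it lay between 0.0589 and 0.166. TAP2 shares exon sequence on its own strand with AL669918.1 (11 to 211 counts). B2M, the light chain of MHC class I, had 258.9 ± 6.11 and 266.8 ± 8.86 CPM (log2 fold change 0.044).

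**Figure D5:**
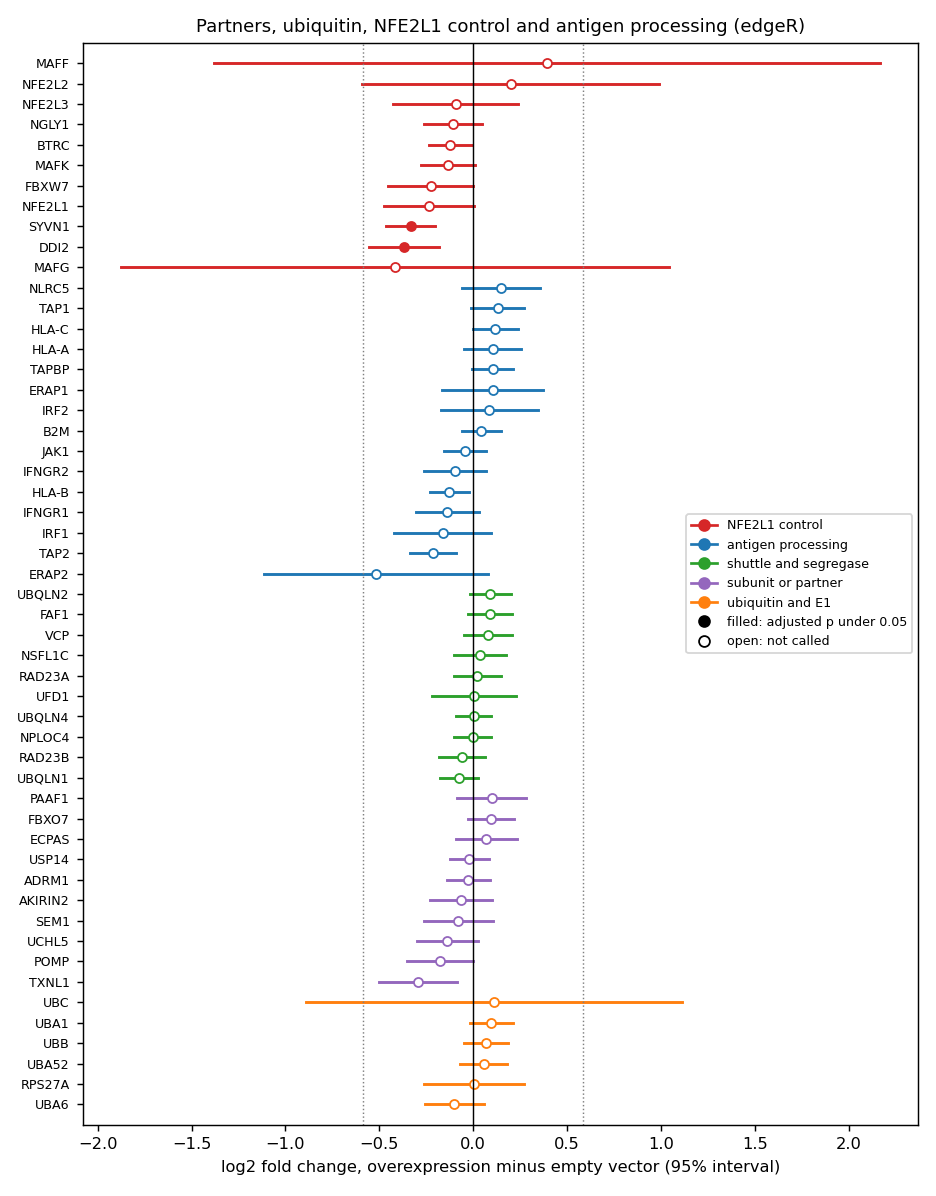
Log2 fold change (x axis, overexpression minus empty vector) of 52 of the related genes, coloured by list, with 95% intervals from edgeR as bars and filled symbols for an adjusted p under 0.05. DDI2 and SYVN1 are the 2 filled symbols, at -0.37 and -0.33.

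The reference sequence around the starts of proteasome genes was searched for the letters that NFE2L1 and interferon factors are known to recognise. Reference windows of 300 bases, 250 before and 50 after the start, were found for 42 of the 48 genes in RefSeq (GRCh38.p14), 51 windows in all. The core of the antioxidant response element, TGACNNNGC on either strand, which NFE2L1 and NFE2L2 recognise with small Maf partners, was in 15 of the 51 windows (29.4%) and in 13.3% of all 35116 windows. It was in windows of 15 genes, from the beta ring (PSMB3), the base (PSMC4, PSMC5, PSMD1), the lid (PSMD3, PSMD12) and the activators (PSME1, PSME2, PSME4) among others. None of those genes was called. Stretches around the match, in capitals, are shown for a ring gene, a lid gene, an activator and an immunoproteasome gene, 5′ to 3′ on the strand of the gene. The match in PSMB9 is on the opposite strand, and the stretch shown lies just outside the 5′ end of TAP1. The stretches are PSMB3 at chr17:38752612-38752671 (plus strand), PSMD12 at chr17:67366708-67366767 (minus), PSME1 at chr14:24136083-24136142 (plus) and PSMB9 at chr6:32854019-32854078 (plus).
PSMB3: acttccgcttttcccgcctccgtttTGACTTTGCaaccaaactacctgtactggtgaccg
PSMD12: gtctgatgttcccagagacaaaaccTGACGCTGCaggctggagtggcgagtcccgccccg
PSME1: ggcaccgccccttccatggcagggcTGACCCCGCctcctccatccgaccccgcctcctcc
PSMB9: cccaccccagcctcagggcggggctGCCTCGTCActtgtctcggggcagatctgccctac

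The interferon-stimulated response element, searched as GAAA followed after any 2 bases by GAAA, was in 7 of the 51 windows on either strand (13.7%) and in 3.57% of all windows. The 7 genes were PSMA4, PSMB4, PSMB8, PSMB10, PSME1, PSME2 and PSMG4, so they held 4 of the genes of the immunoproteasome and its activator. Their log2 fold changes with overexpression ran from -0.069 (PSMA4) to 0.13 (PSMB8), and 0 were called. The matches of PSMB10 (chr16:67936852-67936881, minus strand) and PSME2 (chr14:24146619-24146648, minus strand) have the same letters, shown in capitals.
PSMB10: gggtaaaggcGAAAGCGAAAgcaggaagta
PSME2: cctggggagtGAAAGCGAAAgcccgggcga

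A further pair of letter patterns was searched on both strands. TTCNNNGAA, the core of the gamma-activated site of interferon-responsive genes, was in 8 windows (15.7%) against 7.66% of all windows, and CCAAT in 20 (39.2%) against 34.6%. A match is a description of the letters and not a binding site, and the 6 genes with no window in the table were PSMA7, PSMB1, PSMB6, PSMB7, PSMD4 and PSMG3.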

How the data were processed

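RNA was sequenced from 6 libraries, 3 per group. The tools listed in the submitters' processing notes are Trimmomatic 0.36, HISAT2, featureCounts, Subread 1.5.1 and DESeq, with the build GRCh38. The counts per gene, as deposited, are whole numbers with no normalization, and the TPM values were deposited by the authors. The TPM tool, annotation and strand setting were not given in the sources used here, so reads of overlapping genes cannot be told apart. Named pseudogenes of 17 members were not among the genes counted.

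Counts were fitted with edgeR 4.0.16 in R 4.3.3 (TMM scaling, filterByExpr with a minimum count of 10 and total of 15, robust quasi-likelihood F test, adjustment over all genes tested, called under 0.05). DESeq2 1.42.0 and limma 3.58.1 (voom, and trend on log2(TPM + 1)) served as alternatives, with other scalings, filters and left-out libraries. The fit was tested on simulated counts. CPM are TMM-scaled, and errors are SD of 3 libraries. Ratios were tested by exact permutation. Positions are from GENCODE 29.

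Members and lists were chosen with earlier results of these data known. Named were all called genes, the extremes and smallest p of each class, the catalytic, PSME, PSMF, PSMG and PSMA8 genes, and set genes of the related list. PSMA2, PSMD2, PSMD4, PSMD5, PSMD9, PSMD14, PSMA4, MAFG, TXNL1, TAP2 and the lowest base genes were named after their values were seen. Some markers and 1 related gene are not reported here.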

Additional observations from a re-analysis of the deposited data

How the results depend on the processing

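No proteasome gene was called in any of the 17 alternatives, and of 816 values for the members 746 kept their sign and 70 changed it while uncalled. The smallest adjusted p lay between 0.103 and 0.275. Over all genes tested, 759 were called with edgeR, 1316 with DESeq2, 282 with limma on log2(TPM + 1), 267 with a pseudocount of 0.1, 152 with no filter on TPM, and 193 to 458 with 1 library left out. Of the related genes 2 were called lower, 4 with DESeq2, 1, 1 and 0 in the TPM fits, and 0 to 2 with 1 library left out. In the limma fits on TPM the adjusted p of DDI2 was 0.127 to 0.165 and that of SYVN1 0.065 to 0.0888. The median log2 fold change of the beta ring lay between 0.002 and 0.124 with 1 library left out, the upper value without EV3. That of the 20S chaperones was -0.077 with library size as the only scaling, 0.007 in each TPM fit, and -0.054 to -0.019 with 1 library left out. The cause of these shifts was not tested. Library size alone moved the median of all genes to -0.036. Same-numbered libraries correlated by only 0.037, 0.055 and 0.045 in their deviations, so the numbers were not taken as pairs, although each library's highest correlation across groups was with its own number. With the replicate number as a block, 232 genes were called, 0 of them members and 0 related genes lower: the adjusted p was 0.0604 for DDI2 and 0.0576 for SYVN1, with log2 fold changes of -0.37 and -0.33. All tested subunit genes had a mean of at least 14.5 CPM, and the lowest single value, PSMB9 in EV1, rested on 438 counts.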
